A study of Homo sapiens with 24 samples.

Results

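The genes described here belong to 7 families of plasma membrane and lysosomal amino acid carriers and their heavy chains, SLC1, SLC3, SLC6, SLC7, SLC36, SLC38 and SLC43, and were picked from the table of mRNA levels by gene symbol alone. The rule found 58 of the 22026 genes of the table: 7 SLC1, 2 SLC3, 18 SLC6, 13 SLC7, 4 SLC36, 11 SLC38 and 3 SLC43 genes. Among the SLC6 genes 9 encode carriers whose main substrate is not a protein amino acid, such as monoamines, GABA, creatine or taurine. The cells were A549, a human cell line from a lung adenocarcinoma, kept in CAF conditioned medium or in control medium and collected at 3, 6, 12, 24, 48 and 72 h, so that there were 6 CAF medium and 6 control medium libraries of polyadenylated RNA, 1 per medium and time. CAF is the common short form of cancer-associated fibroblast, which the labels leave unexplained. What either medium contained, and whether it was renewed, is not given in the sources used here.

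Amino acids cross membranes through carriers that differ in substrate and in driving force. Several SLC7 proteins are light chains that reach the cell surface only when bound to a heavy chain, SLC3A2 (also called CD98 or 4F2hc) or SLC3A1, and they work as exchangers that take in one amino acid for another that leaves. Most SLC38, SLC1 and SLC6 carriers use the sodium gradient and build up the pools that the exchangers draw on. The SLC36 carriers are driven by protons, and SLC43A1 and SLC43A2 let neutral amino acids follow their gradient. Lysosomal members of these families return amino acids from digested protein and take part in amino acid sensing by the kinase complex mTORC1. In lung adenocarcinoma cells SLC7A5 and SLC7A11 are well known for the uptake of leucine and of cystine.

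Levels are given as RPKM, that is, reads divided by the length of the gene model and by library depth, which allows levels of different genes to be compared per length. Library depth, read from the step that 1 read adds to a low value, was 23.9 to 29.3 M reads for the 3 earlier times and 33.9 to 40.6 M reads for the 3 later ones. The keratin genes KRT8 and KRT18 of simple epithelium were at 1265 to 2357 and 677 to 1109 RPKM, the highest of the marker genes checked. The other epithelial markers were lower: CDH1 at 4.68 to 40.04 RPKM, KRT19 at 1.56 to 34.05 RPKM and the adhesion gene EPCAM at 0.24 to 6.46 RPKM. Of the leukocyte markers CD68 was at 13.96 to 30.62 RPKM and PTPRC at or under 0.04 RPKM. The endothelial markers PECAM1 and CDH5 stayed at or under 0.08 and 0.02 RPKM. Of alveolar genes the surfactant genes SFTPC and SFTPB stayed at or under 0.18 and 0.08 RPKM, and the lamellar body carrier ABCA3 was at 4.92 to 8.91 RPKM. The summed level of 10 fibroblast markers was 8.67 to 12.0 RPKM in CAF medium (median 9.87) and 4.89 to 11.7 RPKM in control medium (median 6.96), with 0 of 10 markers at 0 in every library. Over the 12 libraries the collagen gene COL1A1 was at 1.37 to 5.81 RPKM, FAP at 1.67 to 4.71 RPKM, THY1 at 0.12 to 2.22 RPKM, LUM at 0.24 to 1.43 RPKM, PDGFRA at 0.38 to 1 RPKM and DCN at 0.13 to 0.6 RPKM. The other 4, COL1A2, COL3A1, POSTN and PDGFRB, stayed at or under 0.12, 0.16, 0.11 and 0.07 RPKM. The part of these genes' cells in the carrier levels was not tested. In bulk RNA, fewer cells of a kind and less RNA per cell cannot be told apart. Although the design text gives each sample 2 biological replicates, the table holds 1 value for them, and no difference at a single time can be set against replicates. The 6 times stood in as replicates of the medium effect. Separate cultures are not recorded elsewhere. The p-values of the medium effect measure the spread of the CAF minus control difference across times. That spread may be technical or a response that changes with time, and these cannot be told apart here. The p-values of the slope with time measure only the spread between libraries, which may be technical.

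Of the 58 carrier genes 25 averaged at least 1 RPKM over the 12 libraries and were tested. The 33 others were low: 28 of them stayed under 0.3 RPKM in every library. The 5 remaining untested genes were SLC6A9, the glycine carrier GLYT1 (0.66 to 1.3 RPKM in CAF medium, against 0.32 to 1.1 RPKM in control medium), SLC7A7, SLC6A17, SLC7A9 and SLC6A13, whose highest levels were 0.99, 0.93, 0.54 and 0.3 RPKM. The heavy chain SLC3A1 was among the low genes, with at most 0.29 RPKM, so that SLC3A2 carried nearly all heavy chain mRNA. The highest mean levels over the 12 libraries were those of SLC3A2 (67.9 RPKM), SLC7A5 (61.8 RPKM), SLC1A5 (39.3 RPKM), SLC38A2 (33.8 RPKM), SLC6A6 (22.4 RPKM), SLC38A10 (20.9 RPKM), SLC38A1 (12.7 RPKM) and SLC38A6 (8.28 RPKM). The tested genes were read with about 13.9 reads, for SLC43A1 in its lowest library, to 15149 reads, for SLC7A5 in its highest.

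The first comparison asks which carriers changed in CAF medium over the 6 times, each CAF medium library set against the control library of its own time. Changes are on the log2(RPKM + 0.5) scale, with the SE after each value where given. The heavy chain partner SLC7A5, the cystine carrier SLC7A11, the neutral amino acid carrier SLC1A4 and the arginine carrier SLC7A1 fell, with log2 changes of -0.92, -0.74, -0.61 and -0.52. The cationic carrier SLC7A2, the sodium-coupled neutral carrier SLC38A2, the glutamate carrier SLC1A3 and the branched-chain amino acid carrier SLC6A15 rose, with log2 changes of 0.82, 0.79, 0.76 and 0.39. By limma with Benjamini-Hochberg adjustment over all 12029 tested genes, 4 of 25 carriers were up (16%), where 6.06% of all tested genes were up, and 4 of 25 were down (16%), where 4.13% of all tested genes were down. Together these were 8 of 25 (32%), where 10.2% of all tested genes passed. The median log2 change was -0.04 over the 25 carriers and 0.002 over all tested genes. None of the 8 calls survived the loss of the 6 h pair (adjusted p = 0.0615 to 0.126), of the 12 h pair (0.0589 to 0.11) or of the 24 h pair (0.0553 to 0.12), and without the 48 h pair SLC6A15, SLC7A1 and SLC7A11 lost theirs (0.0658, 0.0596 and 0.0572), while all 8 directions stayed the same. With no filter on low values, or with no term for time, 0 carriers passed (limma, with adjusted p = 0.331 to 0.45 for the 8 without the time term).

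**Figure D1:**
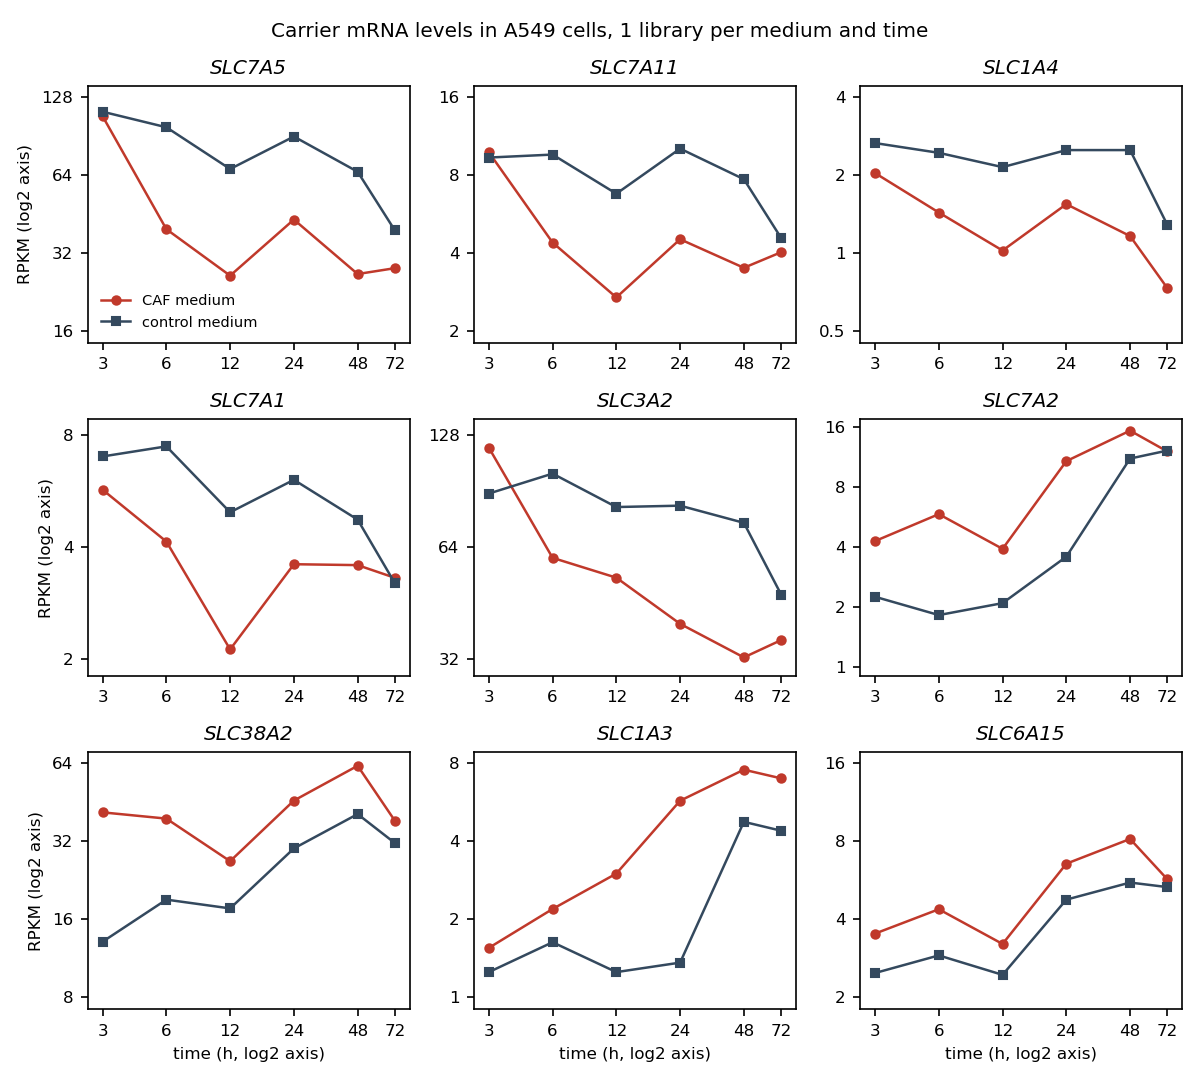
Level in RPKM (log2 axis) against time in hours (log2 axis) of the 8 carriers past the test over the 6 times and of SLC3A2, 1 point per library, CAF medium in red circles and control medium in dark squares. At 3 h SLC7A5 measured 108 RPKM in CAF medium and 112 RPKM in control medium, and SLC7A5, SLC7A11 and SLC3A2 were all below the control from 6 h on, while SLC38A2, SLC1A3 and SLC6A15 were above the control at 6 of 6 times.

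SLC3A2, the heavy chain, measured 118, 59.8, 52.9, 39.7, 32.3 and 35.9 RPKM in CAF medium at the 6 times in order. Its control medium levels were 88.9, 101, 81.8, 82.5, 74.2 and 47.6 RPKM. It was higher than the control at 3 h and lower at the other 5 times, and the ranges of the media overlapped. Over the 6 times its change missed the threshold (limma, log2 -0.60 ± 0.18, adjusted p = 0.0542). It passed without the 3 h pair (log2 -0.80, adjusted p = 0.0131) and with median centring (adjusted p = 0.0445). Without the 6, 12, 24, 48 or 72 h pair it missed the threshold (adjusted p = 0.14, 0.126, 0.159, 0.111 and 0.0669). SLC7A5, the light chain LAT1 that exchanges leucine and other large neutral amino acids for glutamine, measured 108, 39.5, 26.1, 42.98, 26.5 and 27.9 RPKM in CAF medium at the 6 times in order. In control medium the levels were 112, 97.6, 67.3, 89.9, 65.7 and 39 RPKM. CAF medium was below control at 6 of 6 times, least so at 3 h, and the ranges of the media overlapped. SLC7A5 fell over the 6 times (log2 -0.92 ± 0.17, adjusted p = 0.0162) and averaged 45.1 ± 31.5 RPKM in CAF medium and 78.6 ± 26.3 RPKM in control medium (SD, n = 6 times each). SLC7A5 has pseudogene copies, and how reads shared with them were counted is not given in the sources used here. Within a library the ratio of SLC7A5 to SLC3A2 was 0.911, 0.66, 0.494, 1.08, 0.821 and 0.777 in CAF medium at the 6 times in order, against 1.26, 0.97, 0.823, 1.09, 0.886 and 0.819 in control medium.

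SLC7A11, the light chain xCT that takes up cystine in exchange for glutamate, measured 9.77, 4.38, 2.69, 4.51, 3.5 and 4.02 RPKM in CAF medium at the 6 times in order. Control medium gave 9.32, 9.57, 6.76, 10.1, 7.69 and 4.56 RPKM. Its values were close at 3 h and at 72 h and apart at 6 to 48 h, with log2 differences of -1.05, -1.19, -1.08 and -1.03. SLC7A11 fell (log2 -0.74 ± 0.17, adjusted p = 0.0276), and the loss of the 6, 12, 24 or 48 h pair moved its adjusted p to 0.0899, 0.0885, 0.09 and 0.0572. SLC7A6, the light chain y+LAT2 that exchanges cationic for neutral amino acids, measured 2.41 to 3.61 RPKM with a median of 2.77 in CAF medium, against 2.64 to 6.42 RPKM with a median of 3.88 in control medium. It was lower than the control at 6 of 6 times and did not pass over all of them (log2 -0.39 ± 0.12, adjusted p = 0.0586).

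The promoter windows of 5 of the 8 genes past the test, those matched in the RefSeq table used here, are shown because factors of the amino acid and oxidative stress responses are known to act on several carrier genes. They were taken from RefSeq (build GRCh38.p14) and run 5′ to 3′ on the strand of the gene from 250 bases before to 50 bases after the start. Capitals mark matches on either strand to 3 motifs: TGATGNAA, bound by ATF4 with a C/EBP partner, TGACNNNGC, bound by NRF2, and the palindrome CACGTG, an E-box bound by MYC and TFEB. No marked match overlapped one of another motif. The window of SLC7A5 held an E-box and an NRF2 motif.
SLC7A5 promoter window, chr16:87869458-87869757, minus strand: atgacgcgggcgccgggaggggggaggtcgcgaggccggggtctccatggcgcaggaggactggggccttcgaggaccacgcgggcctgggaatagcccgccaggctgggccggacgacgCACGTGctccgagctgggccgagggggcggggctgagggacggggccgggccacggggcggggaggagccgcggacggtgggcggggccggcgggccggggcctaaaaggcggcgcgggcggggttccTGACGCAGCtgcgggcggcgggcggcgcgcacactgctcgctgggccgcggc

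The 2 main carriers for arginine and lysine went opposite ways. SLC7A1, the cationic carrier CAT1, measured 5.69, 4.13, 2.12, 3.59, 3.57 and 3.3 RPKM in CAF medium at the 6 times in order. The levels in control medium were 6.99, 7.44, 4.95, 6.05, 4.73 and 3.19 RPKM. It was lower in CAF medium at 5 of 6 times and at 3.30 RPKM in CAF medium against 3.19 RPKM in control medium at 72 h, and the ranges overlapped. SLC7A1 fell (log2 -0.52 ± 0.14, adjusted p = 0.0398). SLC7A2, the cationic carrier CAT2, measured 4.29, 5.86, 3.92, 10.8, 15.4 and 12.1 RPKM in CAF medium at the 6 times in order. Its control medium levels were 2.25, 1.82, 2.09, 3.58, 11.2 and 12.2 RPKM. It was higher in CAF medium at 5 of 6 times, with the control level reaching that of CAF medium at 72 h. SLC7A2 rose (log2 0.82 ± 0.18, adjusted p = 0.023). The ratio of SLC7A2 to SLC7A1 within a library was 0.754, 1.42, 1.85, 3.02, 4.32 and 3.67 in CAF medium at the 6 times in order, against 0.322, 0.245, 0.422, 0.592, 2.36 and 3.84 in control medium. The ratio passed 1 between 3 and 6 h in CAF medium and between 24 and 48 h in control medium. It restates the opposite changes of the 2 genes, with 1 library per point, and adds no support. The SLC7A1 window held an ATF4 motif and an NRF2 motif.
SLC7A1 promoter window, chr13:29595639-29595938, minus strand: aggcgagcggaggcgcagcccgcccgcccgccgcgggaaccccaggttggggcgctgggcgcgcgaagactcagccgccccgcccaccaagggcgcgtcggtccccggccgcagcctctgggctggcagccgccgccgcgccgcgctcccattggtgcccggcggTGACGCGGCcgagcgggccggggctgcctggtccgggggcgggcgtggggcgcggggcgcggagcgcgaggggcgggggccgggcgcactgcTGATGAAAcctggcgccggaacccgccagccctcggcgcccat

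**Figure D2:**
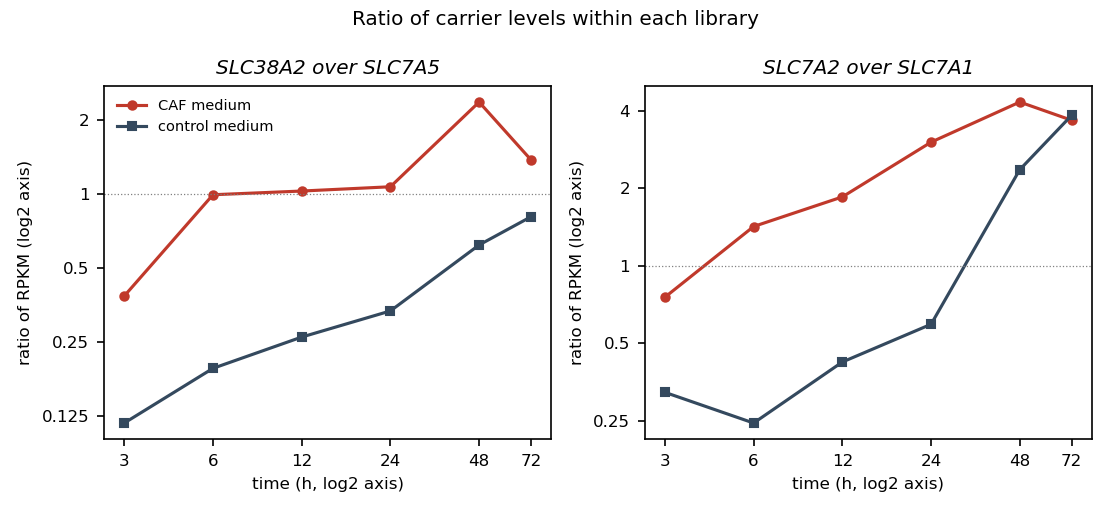
Ratio of 2 carrier levels within each library (RPKM over RPKM, log2 axis) against time in hours (log2 axis), CAF medium in red circles and control medium in dark squares, 1 library per point, with the dotted line at 1. SLC38A2 over SLC7A5 was higher in CAF medium at each of the 6 times (0.384 to 2.36, against 0.117 to 0.807 in control medium), and SLC7A2 over SLC7A1 was 3.67 in CAF medium and 3.84 in control medium at 72 h. Each ratio joins a carrier that rose and a carrier that fell, so it restates those changes and adds no support.

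Among the sodium-coupled neutral carriers SLC38A2, known as SNAT2 and induced in many cells when amino acids run short, measured 41.3, 39.1, 26.8, 45.9, 62.5 and 38.3 RPKM in CAF medium at the 6 times in order. In control medium the levels were 13.1, 19.04, 17.6, 30.01, 40.7 and 31.5 RPKM. CAF medium was above control at 6 of 6 times, by a log2 difference of 1.62 at 3 h and of 0.28 at 72 h, and the ranges of the media overlapped across times. SLC38A2 rose (log2 0.79 ± 0.15, adjusted p = 0.0178) and averaged 42.3 ± 11.7 RPKM in CAF medium and 25.3 ± 10.4 RPKM in control medium (SD, n = 6 times each). Its ratio to SLC7A5, the exchanger that releases glutamine when leucine enters, was 0.384, 0.991, 1.03, 1.07, 2.36 and 1.37 in CAF medium at the 6 times in order, against 0.117, 0.195, 0.261, 0.334, 0.619 and 0.807 in control medium. SLC38A2 was above and SLC7A5 below control at 6 of 6 times, so the direction of this ratio was fixed and adds no support. The promoter window of SLC38A2 held none of the 3 motifs, and sequence outside that window was not searched.
SLC38A2 promoter window, chr12:46372724-46373023, minus strand: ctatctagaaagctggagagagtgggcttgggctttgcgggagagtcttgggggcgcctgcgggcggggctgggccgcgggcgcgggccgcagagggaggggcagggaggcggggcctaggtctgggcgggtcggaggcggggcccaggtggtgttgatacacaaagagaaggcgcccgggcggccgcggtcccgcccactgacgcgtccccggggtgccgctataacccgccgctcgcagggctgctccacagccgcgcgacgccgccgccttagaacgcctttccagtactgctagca

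The other SLC38 members did not pass over the 6 times. SLC38A1, the glutamine carrier SNAT1, measured 8.6 to 14.5 RPKM with a median of 11.6 in CAF medium, against 11.2 to 16.7 RPKM with a median of 13.9 in control medium (log2 -0.25 ± 0.10, adjusted p = 0.134). SLC38A6, a less studied member, had the smallest range of differences of the 25 tested carriers, between -0.11 and 0.02, and it averaged 8.16 ± 0.688 RPKM in CAF medium and 8.4 ± 0.595 RPKM in control medium (SD, n = 6 times each). SLC38A10, whose substrates are less well known, was at 17.1 to 25.7 RPKM with a median of 20.7 in CAF medium, against 15.7 to 28.2 RPKM with a median of 18.5 in control medium (log2 0.05 ± 0.14, adjusted p = 0.844), with signs that turned when the 12 h or the 24 h pair was left out (log2 -0.03 and -0.02). Both lysosomal members, SLC38A9, which senses arginine for mTORC1, and SLC38A7, which exports glutamine, did not pass either (log2 -0.03 ± 0.11 in SLC38A9 with adjusted p = 0.868, and -0.28 ± 0.14 in SLC38A7 with adjusted p = 0.217).

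SLC1A4 and SLC1A5, the exchangers ASCT1 and ASCT2 for alanine, serine and cysteine and, in ASCT2, glutamine, stood at different levels. SLC1A4 measured 2.03, 1.43, 1.02, 1.54, 1.16 and 0.73 RPKM in CAF medium at the 6 times in order. Control medium gave 2.65, 2.43, 2.14, 2.49, 2.49 and 1.28 RPKM. It was lower in CAF medium at 6 of 6 times and fell (log2 -0.61 ± 0.11, adjusted p = 0.0166), with the 72 h control well under the other controls. SLC1A5 measured 38.4, 36.9, 37.5, 41.1, 59.8 and 36.1 RPKM in CAF medium at the 6 times in order. The levels in control medium were 34.5, 34.4, 27.1, 40.2, 51.95 and 33.7 RPKM. Its CAF medium level was higher at 6 of 6 times by log2 differences of 0.03 to 0.46, and it did not pass (log2 0.17 ± 0.09, adjusted p = 0.208). The table held 2 promoter windows for SLC1A4, of which the second held an ATF4 motif on the opposite strand.
SLC1A4 promoter window, chr2:64988229-64988528, plus strand: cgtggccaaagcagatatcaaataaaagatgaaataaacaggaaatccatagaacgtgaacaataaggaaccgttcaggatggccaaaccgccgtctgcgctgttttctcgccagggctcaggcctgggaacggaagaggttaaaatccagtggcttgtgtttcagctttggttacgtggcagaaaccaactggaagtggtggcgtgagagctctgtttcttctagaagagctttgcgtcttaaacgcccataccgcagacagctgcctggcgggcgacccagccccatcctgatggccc
SLC1A4 promoter window, chr2:64989149-64989448, plus strand: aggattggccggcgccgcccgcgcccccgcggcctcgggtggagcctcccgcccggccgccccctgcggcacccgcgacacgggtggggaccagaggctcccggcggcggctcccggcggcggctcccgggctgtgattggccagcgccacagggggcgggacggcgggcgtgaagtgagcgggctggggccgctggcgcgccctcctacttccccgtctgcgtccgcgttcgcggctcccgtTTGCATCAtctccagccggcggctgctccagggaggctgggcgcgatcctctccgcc

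Of the sodium-dependent glutamate carriers SLC1A3, known as EAAT1 or GLAST and best known from astrocytes, measured 1.55, 2.19, 3, 5.73, 7.55 and 6.99 RPKM in CAF medium at the 6 times in order. Its control medium levels were 1.25, 1.63, 1.25, 1.36, 4.75 and 4.39 RPKM. Its control level was 1.25 to 1.63 RPKM at 3 to 24 h and 4.39 to 4.75 RPKM at 48 and 72 h, whereas the CAF medium level was already 3.00 RPKM at 12 h and 5.73 RPKM at 24 h. SLC1A3 rose (log2 0.76 ± 0.18, adjusted p = 0.0285) and was higher at 6 of 6 times, most at 24 h (log2 difference 1.74). SLC1A1, the glutamate and cysteine carrier EAAT3, measured 2.01 to 6.53 RPKM with a median of 3.75 in CAF medium, against 3.29 to 5.45 RPKM with a median of 3.41 in control medium and did not pass (log2 0.06 ± 0.13, adjusted p = 0.79). The table held 3 windows for SLC1A3, the first with an ATF4 motif, the second with an NRF2 motif and the third with none.
SLC1A3 promoter window, chr5:36596338-36596637, plus strand: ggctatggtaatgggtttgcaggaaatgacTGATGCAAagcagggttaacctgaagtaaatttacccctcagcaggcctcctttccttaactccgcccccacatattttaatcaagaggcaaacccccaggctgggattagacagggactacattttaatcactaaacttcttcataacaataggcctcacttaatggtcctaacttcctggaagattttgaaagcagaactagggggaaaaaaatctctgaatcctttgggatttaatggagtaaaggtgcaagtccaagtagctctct
SLC1A3 promoter window, chr5:36606356-36606655, plus strand: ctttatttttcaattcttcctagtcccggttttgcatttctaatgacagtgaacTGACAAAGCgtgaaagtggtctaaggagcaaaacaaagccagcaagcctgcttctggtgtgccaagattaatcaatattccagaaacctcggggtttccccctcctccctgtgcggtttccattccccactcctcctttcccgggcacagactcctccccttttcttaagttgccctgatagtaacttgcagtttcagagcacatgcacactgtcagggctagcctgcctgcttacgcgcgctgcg
SLC1A3 promoter window, chr5:36606704-36607003, plus strand: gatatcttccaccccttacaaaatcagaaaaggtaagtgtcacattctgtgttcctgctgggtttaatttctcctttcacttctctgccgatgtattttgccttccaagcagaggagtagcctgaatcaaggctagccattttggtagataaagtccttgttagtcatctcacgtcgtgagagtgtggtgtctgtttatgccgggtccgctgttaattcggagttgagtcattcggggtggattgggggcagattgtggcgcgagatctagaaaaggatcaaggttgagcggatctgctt

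In the SLC6 family SLC6A15, the carrier B0AT2 for branched-chain amino acids and proline, measured 3.52, 4.37, 3.21, 6.55, 8.16 and 5.7 RPKM in CAF medium at the 6 times in order. In control medium the levels were 2.48, 2.9, 2.44, 4.76, 5.54 and 5.32 RPKM. It was higher in CAF medium at 6 of 6 times, with the smallest difference at 72 h, and rose (log2 0.39 ± 0.09, adjusted p = 0.0317). SLC6A16, an orphan member without a known substrate, measured 5.94, 4.46, 6, 4.2, 3.06 and 3.7 RPKM in CAF medium at the 6 times in order. Control medium gave 2.94, 2.1, 3.17, 2.31, 3.55 and 3.82 RPKM. It was higher in CAF medium at 3 to 24 h and lower at 48 and 72 h, and did not pass over the 6 times (log2 0.53 ± 0.16, adjusted p = 0.0617). SLC6A6 and SLC6A8 carry taurine and creatine rather than protein amino acids. SLC6A6 was higher at 6 of 6 times, at 17.2 to 29.97 RPKM with a median of 24.2 in CAF medium, against 16.4 to 24.5 RPKM with a median of 19.3 in control medium, and missed the threshold (log2 0.28 ± 0.10, adjusted p = 0.0822). SLC6A8, which has a pseudogene copy, SLC6A10P, listed at no more than 0.04 RPKM, had a log2 change of 0.20 ± 0.17 (adjusted p = 0.46). SLC6A14, a carrier of neutral and cationic amino acids, measured 0.85 to 3.43 RPKM with a median of 2.25 in CAF medium, against 1.67 to 5.35 RPKM with a median of 2.88 in control medium, with the lowest value at 3 h in CAF medium, and did not pass (log2 -0.41 ± 0.21, adjusted p = 0.209).

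The proton-coupled carrier SLC36A1, known as PAT1 and found on lysosomes, measured 0.9 to 1.61 RPKM with a median of 1.24 in CAF medium, against 1.29 to 2.16 RPKM with a median of 1.68 in control medium. It was lower in CAF medium at 6 of 6 times without passing (log2 -0.33 ± 0.11, adjusted p = 0.0739), and SLC36A4 had a log2 change of -0.12 (adjusted p = 0.508). The facilitators of the SLC43 family stood on opposite sides of 0. SLC43A1, known as LAT3, measured 0.83, 1.33, 1.63, 1.2, 1.53 and 1.33 RPKM in CAF medium at the 6 times in order. The levels in control medium were 0.33, 0.22, 0.23, 0.53, 1.24 and 1.85 RPKM. Its CAF medium level was higher at 5 of 6 times and the control level was above it at 72 h (over the 6 times log2 0.69 ± 0.22, adjusted p = 0.0713). SLC43A1 averaged 1.31 RPKM in CAF medium and 0.733 RPKM in control medium, so it passed the filter of 1 RPKM only through CAF medium, and its tests support nothing here. The size of its change also moved with the pseudocount, to 1.09 with 0.1 and 0.48 with 1. The orphan SLC6A16 passed without the 48 h pair (limma, adjusted p = 0.0341), without the 72 h pair (0.0359) and with median centring (0.0492). At 48 and 72 h it was lower in CAF medium. Without the 3, 6, 12 or 24 h pair SLC6A16 did not pass (0.12, 0.179, 0.161 and 0.166). SLC43A2, known as LAT4, measured 1.67 to 3.78 RPKM with a median of 2.44 in CAF medium, against 2.82 to 3.87 RPKM with a median of 3.3 in control medium and did not pass (log2 -0.37 ± 0.12, adjusted p = 0.0764).

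**Figure D3:**
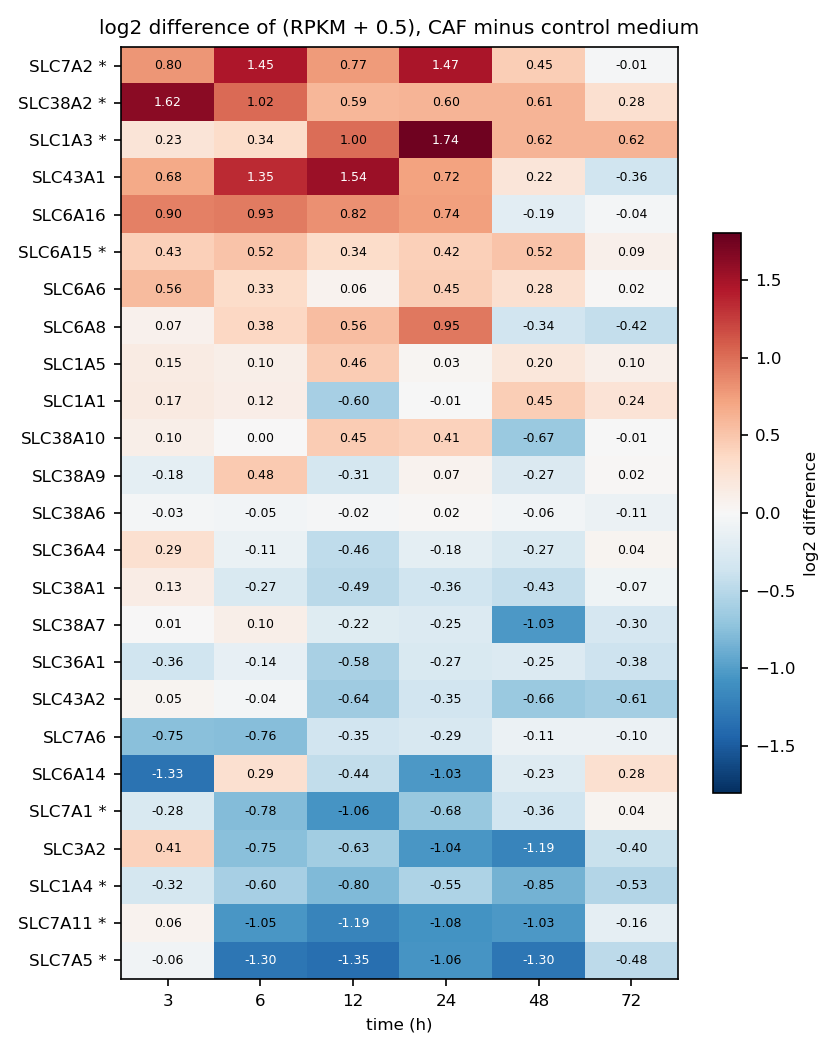
Log2 difference of (RPKM + 0.5), CAF minus control medium, for the 25 tested carriers (rows, ordered by the effect over the 6 times) at each time in hours (columns), with red for higher in CAF medium, blue for lower and an asterisk on the 8 carriers past the test. The differences of SLC7A5 and SLC7A11 were -0.06 and 0.06 at 3 h and between -1.03 and -1.35 at 6 to 48 h.

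At single times, where there is no test, a log2 difference of at least 1 was used to describe the members. At 3 h 1 of 25 carriers was that much higher, SLC38A2, where 1.2% of all tested genes were, and 1 was that much lower, SLC6A14 (all tested genes 0.981%). At 6 h SLC7A2, SLC43A1 and SLC38A2 were higher (3 of 25, all tested genes 2.32%) and SLC7A5 and SLC7A11 lower (2 of 25, 0.973%). At 12 h SLC43A1 and SLC1A3 were higher (2 of 25, 2.96%) and SLC7A5, SLC7A11 and SLC7A1 lower (3 of 25, 1.33%). SLC43A1 was tested only through its CAF medium levels, so its place in the counts of 6 and 12 h supports nothing. The 24 h pair had SLC1A3 and SLC7A2 higher (2 of 25, 3.38%) and SLC7A11, SLC7A5, SLC3A2 and SLC6A14 lower (4 of 25, 0.707%). At 48 h 0 of 25 were that much higher (2.24%) and 4 lower (3.17%), namely SLC7A5, SLC3A2, SLC7A11 and SLC38A7. At 72 h 0 of 25 carriers reached a difference of 1 in either direction, where 0.15% of all tested genes were that much higher and 0.757% that much lower.

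The second comparison splits the time course into 3 to 12 h and 24 to 72 h, with 3 pairs in each period. Over 3 to 12 h SLC38A2 (log2 1.08 ± 0.18, adjusted p = 0.0131), SLC7A2 (log2 1.01 ± 0.24, adjusted p = 0.038) and SLC6A16 (log2 0.89 ± 0.18, adjusted p = 0.0234) rose. SLC43A1 also passed (log2 1.19 ± 0.24, adjusted p = 0.0241), with a change of 1.89 at a pseudocount of 0.1 and 0.83 at 1, but it was tested only through its CAF medium levels. With SLC43A1 these were 4 of 25 carriers (16%), and 3 without it, where 3.77% of all tested genes rose (limma, Benjamini-Hochberg over all tested genes). In the same period SLC7A5 (log2 -0.90 ± 0.24, adjusted p = 0.0486), SLC7A1 (log2 -0.70 ± 0.18, adjusted p = 0.0456) and SLC7A6 (log2 -0.62 ± 0.14, adjusted p = 0.0346) fell, 3 of 25 (12%), where 1.86% of all tested genes fell. Both directions together, SLC43A1 included, held 7 of 25 (28%), where 5.63% of all tested genes passed. Over all tested genes 453 rose and 224 fell, against 299 and 230 after quantile normalization. None of these 7 passed without the 6 h pair (adjusted p = 0.102 to 0.269) or without the 12 h pair (0.059 to 0.258), or with no filter on low values (0.131 to 0.194). Without the 3 h pair SLC7A6, SLC6A16 and SLC7A2 lost their calls (0.0932, 0.0535 and 0.0621), and without the 48 h pair SLC7A1 and SLC7A5 did (0.0577 and 0.0546), while SLC7A5 also missed the threshold under quantile normalization (0.0559) and without the mean-variance trend (0.0591).

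Over 24 to 72 h SLC1A3 rose (log2 0.99 ± 0.23, adjusted p = 0.0372), 1 of 25 carriers (4%), where 1.36% of all tested genes rose, and SLC7A5 (log2 -0.94 ± 0.24, adjusted p = 0.0486) and SLC3A2 (log2 -0.88 ± 0.22, adjusted p = 0.0478) fell, 2 of 25 (8%), where 2.74% of all tested genes fell. Together they were 3 of 25 (12%), where 4.09% of all tested genes passed. These 3 calls were lost without the 6 h pair (adjusted p = 0.0519 to 0.0563), the 12 h pair (0.0529 to 0.0761), the 24 h pair (0.145 to 0.168) and the 48 h pair (0.123 to 0.368), with a pseudocount of 0.1 (0.0501 to 0.0536) and with no filter on low values (0.177 to 0.198). SLC3A2 and SLC7A5 also lost theirs without the mean-variance trend (0.0619 and 0.0631), and SLC3A2 under quantile normalization (0.0522). Without the 24 h pair the late change of SLC1A3 was log2 0.62. SLC7A11 had a change of -0.76 (adjusted p = 0.105) in the late period and -0.72 (0.0962) in the early period, and without the 3 h pair it passed in both, at -0.76 (0.0444) late and -1.12 (0.0346) early. The early change of SLC3A2 was -0.32 (limma, adjusted p = 0.388), and it rested on single pairs. It was -0.69 (0.0698) when 3 h was left out, -0.11 (0.867) when 6 h was and -0.17 (0.793) when 12 h was. The difference of the late and early effect was past the threshold for 0 of 25 carriers (limma, smallest adjusted p = 0.291), where 0.416% of all tested genes were called, 0.0582% up and 0.357% down. Of the carriers 4 had an unadjusted p under 0.05: SLC43A1, tested only through CAF medium (log2 difference of effects -1.0 ± 0.34), SLC6A16 (-0.72 ± 0.25), SLC38A2 (-0.58 ± 0.25) and SLC7A6 (0.45 ± 0.20). A carrier called in one period was therefore not shown to respond differently in the other.

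**Figure D4:**
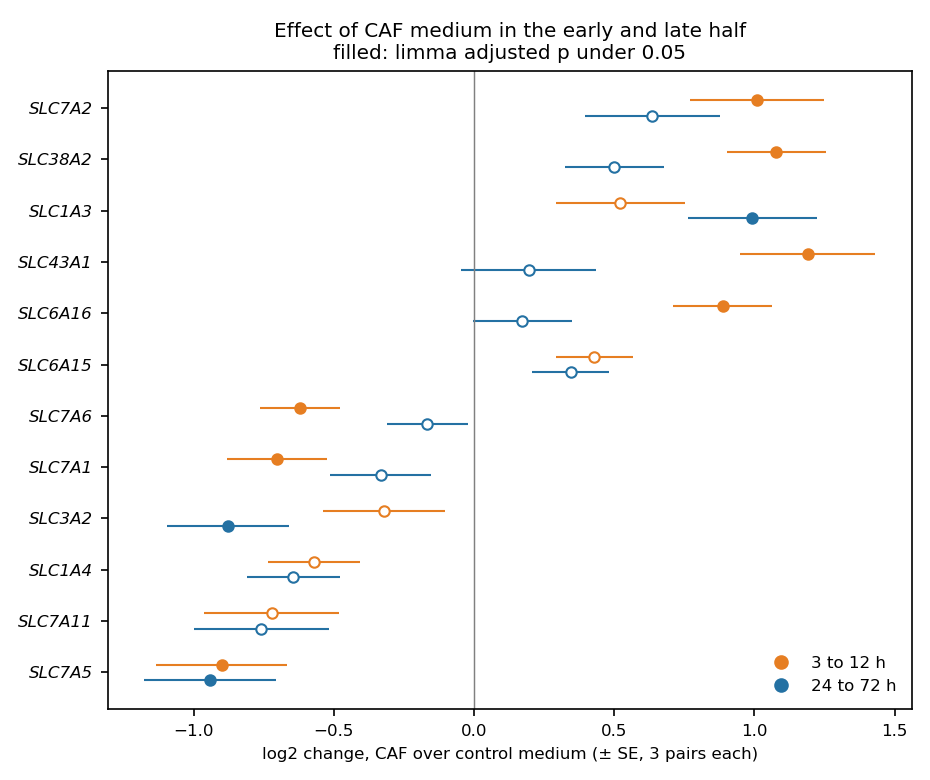
Log2 change, CAF over control medium, with its SE, over 3 to 12 h (orange) and over 24 to 72 h (blue), 3 pairs each, for the 12 carriers past the test in any fit of the medium effect, with filled points past limma's adjusted p of 0.05. SLC38A2 was at 1.08 early and 0.50 late, and SLC3A2 at -0.32 early and -0.88 late.

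The third comparison follows the levels along the 72 h in both media, as a slope per doubling of the hours, with the medium held as a further term. Levels of SLC7A2 (0.47 log2 units per doubling, adjusted p = 0.000686), SLC1A3 (0.40 log2 units per doubling, adjusted p = 0.000394), SLC6A15 (0.23 log2 units per doubling, adjusted p = 0.00252), SLC43A1 (0.21 log2 units per doubling, adjusted p = 0.0173) and SLC38A2 (0.19 log2 units per doubling, adjusted p = 0.0214) rose with time. These were 5 of 25 carriers (20%), where 21% of all tested genes rose, so the share was near the background. SLC43A1 is in this count though it was tested only through its CAF medium levels, and its slope supports nothing here. Those of SLC7A5 (-0.29, adjusted p = 0.00402), SLC3A2 (-0.26, adjusted p = 0.00143), SLC7A11 (-0.17, adjusted p = 0.0463), SLC7A1 (-0.15, adjusted p = 0.032), SLC1A4 (-0.13, adjusted p = 0.0308) and SLC43A2 (-0.12, adjusted p = 0.0226) fell with time, 6 of 25 (24%), where 13.3% of all tested genes fell. Over all tested genes 2532 rose and 1603 fell with time, against 2035 and 2238 after median centring and 2006 and 2108 after quantile normalization, and of the carriers 5 rose and 8 fell after median centring and 4 and 8 after quantile normalization. With a slope on hours rather than their doubling 7 carriers rose and 4 fell, and with 2 classes of time 4 rose and 1 fell, so the balance of directions turned with how time was modelled. In control medium alone SLC7A5 measured 112 RPKM at 3 h and 39.0 RPKM at 72 h, and SLC7A2 measured 2.25 RPKM at 3 h and 12.2 RPKM at 72 h. The slopes and the medium effects come from the same 12 libraries. Libraries of 1 time share that time, so these p-values can be too small, and the libraries of 24 to 72 h were also the deeper ones (33.9 to 40.6 M reads, against 23.9 to 29.3 M reads before), whose part was not tested.

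The calls with time rested on single times in several cases. Without the 3 h libraries SLC7A5, SLC7A1, SLC1A4, SLC7A11 and SLC43A2 lost theirs (adjusted p = 0.0617, 0.237, 0.164, 0.387 and 0.123), and without the 72 h libraries SLC7A1, SLC1A4, SLC7A11, SLC43A1 and SLC43A2 did (0.151, 0.405, 0.181, 0.0734 and 0.155). Without the 6 h libraries SLC7A1, SLC1A4 and SLC7A11 lost theirs (0.103, 0.0674 and 0.0819), and without the 48 h libraries SLC38A2, SLC43A1, SLC7A11 and SLC43A2 did (0.117, 0.0606, 0.0799 and 0.0585). The slope on hours ended the calls of SLC7A1 and SLC7A11 (0.0638 and 0.0896), quantile normalization that of SLC43A1 (0.0693), and no filter on low values those of SLC7A1, SLC1A4 and SLC7A11 (0.065, 0.058 and 0.0931). Over 24 to 72 h against 3 to 12 h as 2 classes, 5 of the 11 remained past the threshold: SLC1A3, SLC7A2, SLC3A2, SLC6A15 and SLC38A2.

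The 3 motifs were counted in 37 promoter windows of the 21 tested carriers matched in the RefSeq table, with SLC7A11, SLC7A2, SLC6A15 and SLC6A6 not matched. The ATF4 motif was in 6 of the 37 windows, those of SLC1A4, SLC1A3, SLC3A2, SLC38A1, SLC7A1 and SLC1A5, where 1.96% of the 12736 windows of all tested genes held it. The NRF2 motif was in 6 of the 37, those of SLC1A3, SLC3A2, SLC7A1, SLC7A6, SLC7A5 and SLC1A5, where 14.5% of the windows of all tested genes held it. That share was near the background. The E-box was in 6 of the 37, those of SLC36A1, SLC43A1, SLC38A7, SLC7A5, SLC1A5 and SLC6A16, against 9.32%. Of the 6 genes with the ATF4 motif SLC1A4 and SLC7A1 fell over the 6 times, SLC1A3 rose and SLC3A2, SLC38A1 and SLC1A5 did not pass. A match is a description of these letters and not a site in use.

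Summed over the 58 carriers the level was 446, 303, 253, 316, 321 and 279 RPKM in CAF medium at the 6 times in order, against 375, 375, 307, 375, 386 and 294 RPKM in control medium. SLC3A2 and SLC7A5 together made up 18.3 to 50.6% of that sum in CAF medium (median 28.7%) and 29.5 to 53.6% in control medium (median 47.3%). The sum was higher in CAF medium at 3 h and lower at the 5 later times.

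Genes that act around the carriers were described by lists, over the 6 times, beside the 6.06% of all tested genes that rose and the 4.13% that fell. Of 11 tested carriers outside the families, which include the mitochondrial carriers, 1 rose and 0 fell over the 6 times: SLC25A29, a mitochondrial carrier of basic amino acids, at 8.96 ± 1.61 RPKM in CAF medium and 6.7 ± 2.2 RPKM in control medium (log2 0.43 ± 0.11, adjusted p = 0.0386). Of 25 tested genes of amino acid sensing by mTORC1, 1 rose and 0 fell: RRAGD, a Rag GTPase that recruits mTORC1 to lysosomes, at 4.05 ± 1.04 RPKM in CAF medium and 2.95 ± 0.623 RPKM in control medium (log2 0.39 ± 0.10, adjusted p = 0.0395). In the list of the amino acid response and ATF4, 1 of 17 rose and 1 fell (limma). CEBPB, a partner of ATF4, was at 82.8 ± 24.2 RPKM in CAF medium and 60.5 ± 26.2 RPKM in control medium (log2 0.50 ± 0.12, adjusted p = 0.0315), and ATF5, a transcription factor induced by amino acid limitation, was at 8.5 ± 4.8 RPKM in CAF medium and 17.7 ± 10.4 RPKM in control medium (log2 -0.95 ± 0.16, adjusted p = 0.0135).

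In the list of glutathione made from cystine, which uses what SLC7A11 imports, 2 of 12 tested genes rose and 1 fell. CTH, which makes cysteine from cystathionine, was at 1.5 ± 0.455 RPKM in CAF medium and 0.928 ± 0.531 RPKM in control medium (log2 0.54 ± 0.15, adjusted p = 0.0492), so it passed the filter of 1 RPKM only through CAF medium and its place in the count supports nothing. GPX4, which uses glutathione to reduce lipid peroxides, was at 120.4 ± 20.8 RPKM in CAF medium and 95.5 ± 15.3 RPKM in control medium (log2 0.33 ± 0.09, adjusted p = 0.0493). CHAC2, which degrades glutathione, fell and was at 5.23 ± 2.63 RPKM in CAF medium and 8.54 ± 2.99 RPKM in control medium (log2 -0.75 ± 0.19, adjusted p = 0.0365). Of 10 tested genes for the use of glutamine and glutamate 0 passed in either direction (limma, Benjamini-Hochberg over all tested genes; 3 at an unadjusted p under 0.05, GOT1, GFPT1 and PYCR1). Of the 20 cytosolic aminoacyl-tRNA synthetases, which charge tRNAs with amino acids, QARS rose, at 42.2 ± 7.14 RPKM in CAF medium and 32.6 ± 8.89 RPKM in control medium (log2 0.40 ± 0.10, adjusted p = 0.0329), and WARS fell, at 21.5 ± 3.83 RPKM in CAF medium and 27.6 ± 3.25 RPKM in control medium (log2 -0.36 ± 0.10, adjusted p = 0.0492). The medians of the 6 lists lay between -0.10 and 0.09 on the log2 scale. The calls of single genes in these lists were not followed under other settings. Over all tested genes 34, 35 and 117 passed without the 6, 12 and 24 h pair in turn, against 1226 with all pairs. With no filter on low values 0 passed.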

How the data were processed

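Polyadenylated RNA of A549 cells was measured in 12 libraries, 1 per medium and time. The values are RPKM per gene as deposited by the authors, with the length of each gene model. TopHat2, edgeR and the build hg19 are named in the submitters' processing notes without versions or roles. How reads were counted, whether strand was used, which annotation served and how 2 biological replicates were joined is not given in the sources used here. Whole reads explained all 64 to 102 low values checked per library (models under 400 bases, within 0.1 read), which gave the depths. At these depths 1 read is a small part of the level of most tested carriers. The fewest reads of a tested carrier in a library were 13.9, for SLC43A1, and then 114, for SLC6A14. The deposited RPKM were tested as log2(RPKM + 0.5), which understates changes of low genes, for the 12029 of 22026 genes that averaged 1 RPKM or more. limma 3.58.1 in R 4.3.3 fitted a moderated model with a mean-variance trend, with Benjamini-Hochberg adjustment over all tested genes and a threshold of 0.05. The medium effect over the 6 times had time as a factor (5 residual degrees of freedom). The fit of 3 to 12 h and 24 to 72 h had 4, and the slope on log2 hours with medium had 9. Each fit was first run on simulated data with known changes. Single times had no test.

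The 58 carriers were found by symbol. The named genes were the carriers past the threshold in a fit of the medium effect and the 8 with the highest means, and others were added in the text to complete a family. The symbol rule uses no measured value, but the choice of these families, the lists and the tests was made with earlier results of these data known. The small RNA libraries were not used here. Alternatives were another pseudocount, filter, scaling or trend, the time term, a slope on hours or 2 classes of time, and each pair left out. Promoter windows came from RefSeq, matched by symbol for 43 of 58 carriers, on build GRCh38.p14, which is not the build of the deposited values.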

Additional observations from a re-analysis of the deposited data

Results flagged for a closer look

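In each of 75 groups of 6 libraries or 6 differences, the gap of the highest or lowest log2 value to its neighbour was divided by the range of the group, and a share above Dixon's critical value for 6 values stands apart. For 6 values drawn alike, chance does this in about 1 in 20 groups. The values here belong to 6 different times, so that rate need not hold. SLC7A5 was far higher at 3 h than at the other times in CAF medium (0.65), at 108 RPKM against at most 42.98 RPKM later. SLC1A5 was high at 48 h in CAF medium (0.744), at 59.8 RPKM, and its control at 48 h was 51.95 RPKM. SLC38A7, the lysosomal glutamine exporter, was low at 48 h in CAF medium (0.653), at 1 RPKM against 2.56 RPKM in the control of that time, and its difference of CAF and control medium stood apart there too (0.642). SLC1A4 was low at 72 h in control medium (0.691), at 1.28 RPKM, and SLC1A1 was high in that library (0.788), at 5.45 RPKM, where CAF medium at 72 h had 6.53 RPKM.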

How the results depend on the processing

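Over all tested genes 1226 passed over the 6 times, 677 at 3 to 12 h, 492 at 24 to 72 h, 50 for the late minus early difference and 4135 with time (limma throughout), and of the carriers 8, 7, 3, 0 and 11. With no filter on low values the genes were 0, 0, 36 and 0 for the first 4 (4744, 3797, 3496 and 1968 at an unadjusted p under 0.05) and the carriers 0 over the 6 times, at 3 to 12 h and at 24 to 72 h. With a mean of at least 5 RPKM, which tests 7519 genes and 11 carriers, 601, 365 and 2558 genes passed over the 6 times, at 3 to 12 h and with time, and 4, 3 and 5 carriers. With no time term 0 genes and 0 carriers passed (1691 genes unadjusted). A pseudocount of 0.1 left 0 carriers at 24 to 72 h, a fit without the trend left 0 genes for the late minus early difference (1369 unadjusted), and 2 classes of time left 5 carriers with time. Leaving out each pair in turn gave 34 to 1399 genes over the 6 times, 0 to 1084 at 3 to 12 h, 31 to 542 at 24 to 72 h, 0 to 242 for the difference and 1572 to 4296 with time, and 0 to 10, 0 to 7, 0 to 4, 0 to 1 and 6 to 14 carriers. The effect turned sign in SLC38A10 without the 12 h pair (-0.033) or the 24 h pair (-0.025), with a range of -0.033 to 0.19. SLC43A1 (-0.069 to 0.47) and SLC6A16 (-0.11 to 0.35) turned at 24 to 72 h when the 24 h pair was left out. The causes were not tested. At single times the carriers past a log2 difference of 1 numbered 22 in all, against 28 with a pseudocount of 0.1, 15 with 1 and 18 with median centring, chosen after seeing the data. The median of all genes shifted by 0.10 between 2 classes of time. Depth limits the low carriers: SLC43A1 had 13.9 reads in its lowest library. SLC43A1 is among the carriers counted at 3 to 12 h and with time, though it was tested only through its CAF medium levels.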
